A study of Mus musculus with 6 samples.

Results

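The aminoacyl-tRNA synthetases are the enzymes that join each amino acid to its transfer RNA, and 38 of their genes were examined here among 30315 genes listed, of which 18062 are protein-coding. The genes were taken by name, from the naming scheme that the family shares. By their known location, 19 encode cytosolic enzymes, 17 encode mitochondrial enzymes, and 2, Gars and Kars, each make both forms from a single gene. RNA sequencing (RNA-Seq) was performed on primary renal tubular epithelial cells (TECs) of C57BL/6 mice, with 3 libraries of cells in which Sox9 was knocked down by siRNA (siSox9) and 3 of cells that received the control siRNA siNC. Cells of both groups were transfected 12 h before hypoxia/reoxygenation (H/R), which was 6 h at 1.0% oxygen in medium without glucose followed by 18 h in complete medium under normal oxygen. Cells without H/R and cells without siRNA were not analysed here, so the comparison is of Sox9 knockdown within H/R. Nothing in the labels says that the 3 libraries of a group came from separate mice or cultures, and p-values therefore measure the spread between these libraries, which may be technical.

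Each synthetase recognises its amino acid and its transfer RNA, and the charged transfer RNA is then carried to the ribosome by an elongation factor. The enzymes fall into 2 structural classes with unrelated catalytic folds, class I and class II, and several cytosolic enzymes are held together with 3 scaffold proteins in the multisynthetase complex. Mitochondria translate the few proteins of their own genome with a separate set of nuclear-encoded synthetases. Proximal tubule cells are rich in mitochondria, and transcription of many cytosolic synthetase genes is known to be raised by ATF4, a factor of the integrated stress response that is made when amino acids run short or the endoplasmic reticulum is stressed. The comparison addresses how the messenger RNA levels of both sets differ when SOX9, a transcription factor of tubule repair, is reduced.

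The values are FPKM, reads scaled to the exon length of a gene and to the reads of its library. Levels of different genes set beside each other therefore also depend on that length, which here covers all annotated exons of a gene. Sox9 itself had 8.93, 8.61 and 9.07 FPKM in siSox9 replicates 1, 2 and 3 and 25.7, 26.5 and 25.6 FPKM in siNC replicates 1, 2 and 3, a log2 fold change of -1.45 (SE 0.034, adjusted p = 7.03e-06, limma with Benjamini-Hochberg adjustment). Library totals recovered from the FPKM lay between 23893200 and 25725700 reads. The 8 epithelial markers were all above 1 FPKM, summing to 3895 to 4209 FPKM per library, with a median log2 fold change of -0.027. Of these, Cdh16 was called higher (log2 fold change 0.36). Pax2 had -0.17 (adjusted p = 0.0937, limma) and passed as lower with limma voom on recovered reads (adjusted p = 0.0283). Krt19 had -0.04, with all siSox9 values below all siNC values. Markers of differentiated proximal tubule were low, with Slc34a1 and Slc5a2 at or near 0. They summed to 2.97 to 3.31 FPKM with siSox9 and 2.68 to 3.15 FPKM with siNC. Lrp2, the only 1 tested, had all siSox9 values above all siNC values (log2 fold change 0.12, adjusted p = 0.157, limma). It passed as higher with limma voom on recovered reads (adjusted p = 0.0317). Leukocyte and macrophage markers summed to 138 to 155 FPKM with siSox9 and 135 to 139 FPKM with siNC, and 1 of the 6, Lyz2, was called higher (log2 fold change 0.21). Fibroblast markers summed to 6.45 to 7.95 FPKM with siSox9 and 7.99 to 9.09 FPKM with siNC, endothelial markers to 2.91 to 3.10 and 3.22 to 4.12 FPKM, and podocyte markers to 4.71 to 5.56 and 6.56 to 7.16 FPKM, nearly all of it Synpo (log2 fold change -0.33, called lower), while Nphs1 was at 0 in every library. The part of these cell types in the results below was not tested, and in bulk RNA fewer cells of a type and less RNA per cell cannot be told apart.

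All 38 synthetase genes were detected in all 6 libraries, and their levels spanned a wide range. Nars, which charges asparagine, was the most abundant at 179 ± 3.03 FPKM (SD, n = 3) with siNC and 183 ± 6.99 FPKM (SD, n = 3) with siSox9. The next in the siNC libraries were Gars at 93.9 ± 4.75, Tars at 79.96 ± 0.570 and Rars at 63.6 ± 2.45 FPKM. Behind them came Iars at 61.4 ± 1.60 FPKM, within the spread of Rars, and Sars at 56.2 ± 1.64 FPKM. At the other end, Nars2, the mitochondrial asparaginyl enzyme, had 0.880 ± 0.0931 FPKM with siNC and 1.05 ± 0.163 FPKM with siSox9, with overlapping groups. It fell under the minimum mean of 1 FPKM used for testing, so 37 of the 38 genes were tested. Of the cytosolic genes, Tarsl2 alone stood low, at 1.91 ± 0.158 FPKM with siNC, where the other 18 lay between 14.3 and 179 FPKM.

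Except for Tars2 beside Tarsl2, mitochondrial synthetases were present at a lower level than their cytosolic counterparts. The median gene had 35.6 FPKM among the 19 cytosolic genes and 3.78 FPKM among the 17 mitochondrial genes in the siNC libraries. Set side by side for 17 amino acids, in 18 pairs because Farsa and Farsb encode the 2 subunits of the cytosolic phenylalanyl enzyme, the cytosolic gene had the higher mean of the siNC libraries in all 18. The ratio of these siNC means ran from 1.88 for Yars over Yars2 to 204 for Nars over Nars2, with a median of 7.06. Tarsl2, a second cytosolic threonyl gene, was left out of the pairs. Its siNC mean of 1.91 FPKM lay below the 6.21 FPKM of Tars2. In FPKM, Farsa and Farsb, whose products form a single enzyme, were unequal in both groups. They had 14.5 ± 0.443 and 31.6 ± 2.38 FPKM with siNC and 14.8 ± 0.543 and 31.7 ± 2.11 FPKM with siSox9. Their exon lengths in this scaling differ, at 4538 and 2620 bases. Recovered reads with siNC were closer, at 1684, 1544 and 1615 for Farsa and 1900, 2149 and 2051 for Farsb. Since FPKM divides reads by exon length, both the shorter length and the higher reads of Farsb enter the FPKM difference.

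**Figure D1:**
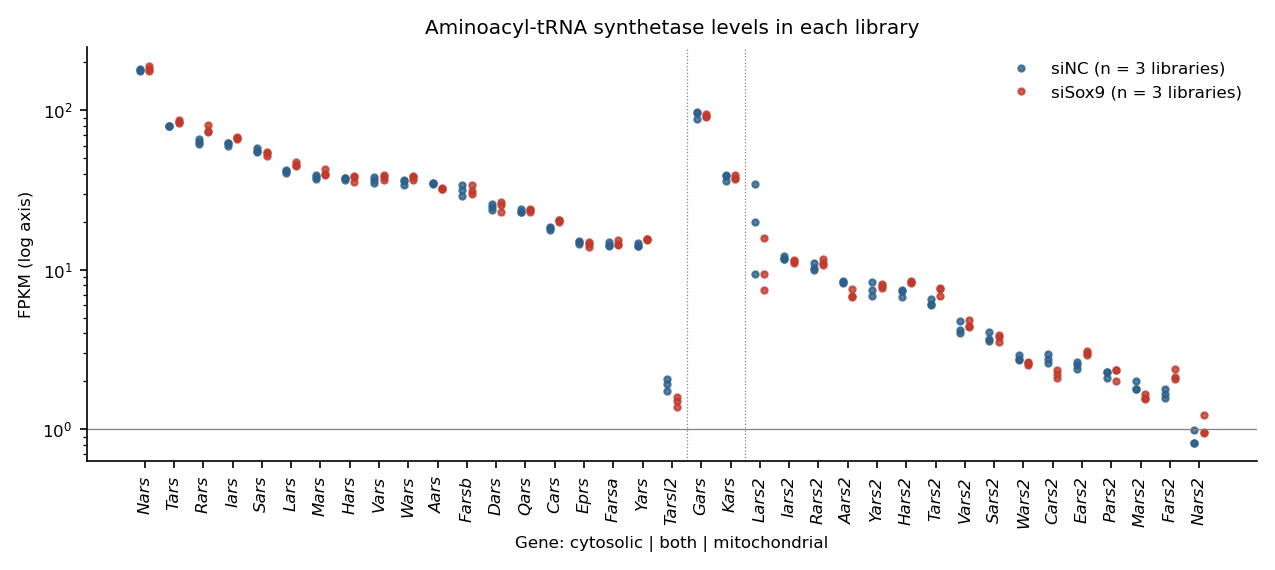
FPKM of 37 of the 38 synthetase genes on a log axis, 1 point per library (siNC blue, siSox9 red, 3 libraries each), ordered within compartment by the siNC mean. Cytosolic genes other than Tarsl2 lie above 10 FPKM and mitochondrial genes other than Lars2, Iars2 and Rars2 below it, and the 3 siNC libraries of Lars2 spread from 9.45 to 34.5 FPKM.

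Knockdown of Sox9 was accompanied by small changes in a minority of the family. Rars, Cars, Lars, Iars, Yars and Tars rose among the cytosolic genes and Fars2, Tars2, Hars2 and Ears2 among the mitochondrial genes, while Tarsl2, Aars, Aars2 and Cars2 fell. In numbers, 14 of the 37 genes tested were called at an adjusted p under 0.05, where 30.4% of all 12009 genes tested were called. The 14 were 10 higher and 4 lower, beside 12.8% higher and 17.6% lower over all genes. After median centring of the libraries, 10 synthetases were higher and 3 lower (1959 and 1765 of all genes, against 1532 and 2118 without it), and with TPM 7 were higher and 0 lower by limma (10 and 3 at an unadjusted p under 0.05). Over all genes with TPM, 1229 were higher and 1342 lower by limma, and 4216 had an unadjusted p under 0.05. The median log2 fold change was 0.014 over the synthetases and -0.014 over all genes, or 0.041 and 0.012 after median centring and 0.043 and 0.011 with TPM. In FPKM, the largest called change was of Fars2, to 131% of its siNC level, and the called genes other than Fars2 and Tarsl2 moved by less than 20%. The groups did not overlap in 12 synthetases with siSox9 above siNC and in 8 below, against 20.2% and 26.1% of all genes tested (46.3% in either direction). For a single gene, an exact two-sided permutation test over 3 against 3 libraries cannot give a p under 0.1, so calls rest on limma, which pools the spread over genes.

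**Figure D2:**
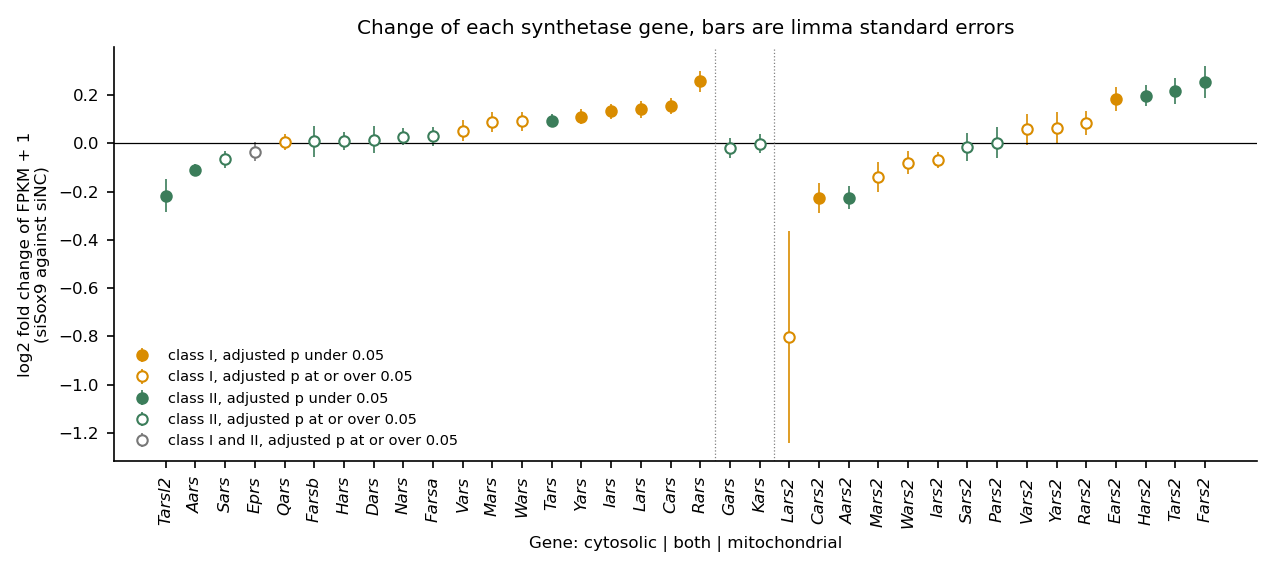
Log2 fold change of FPKM + 1 (siSox9 against siNC) for 36 of the 37 synthetase genes tested, with the standard error from limma as bars, split into cytosolic genes, Gars and Kars, and mitochondrial genes. Filled points passed an adjusted p of 0.05; the 9 cytosolic class I genes all lie above 0, and Lars2 has the widest bar, at -0.80 with a standard error of 0.44.

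Rars, which charges arginine and is bound in the multisynthetase complex, had the largest increase among the cytosolic genes. It had 73.5, 74.7 and 80.4 FPKM in siSox9 replicates 1, 2 and 3 and 61.3, 66.2 and 63.4 FPKM in siNC replicates 1, 2 and 3. Every siSox9 library was above every siNC library, with siSox9 replicate 3 the highest. The means were 76.2 ± 3.69 and 63.6 ± 2.45 FPKM (SD, n = 3 each), which on the log2 scale is a difference of 0.26 (SE 0.045, adjusted p = 0.00567, limma). Cars, the cysteinyl enzyme, had 20.5, 19.9 and 20.7 FPKM with siSox9 and 18.6, 18.2 and 17.7 FPKM with siNC. The 3 libraries of each group lay close together and apart from the other group, for a log2 fold change of 0.16 (SE 0.033, adjusted p = 0.0120, limma).

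Lars and Iars charge the branched-chain amino acids leucine and isoleucine within the multisynthetase complex. Lars had 45.4, 44.9 and 47.4 FPKM with siSox9 and 40.3, 42.5 and 41.8 FPKM with siNC. Its siSox9 values all exceeded those with siNC, for a log2 fold change of 0.14 (SE 0.035, adjusted p = 0.0208, limma). Iars had 68.2, 66.6 and 67.5 FPKM with siSox9 and 59.6, 62.3 and 62.4 FPKM with siNC. Here siNC replicate 1 was the lowest of the 6 libraries and the groups did not overlap, with a log2 fold change of 0.13 (SE 0.030, adjusted p = 0.0160, limma). The branched-chain partner Vars, for valine, lies outside this complex and had 36.4 to 39.3 FPKM with siSox9 and 35.2 to 38.2 FPKM with siNC, with overlapping groups (log2 fold change 0.05, SE 0.043, adjusted p = 0.385, limma).

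Yars and Tars, the tyrosyl and threonyl enzymes, were higher by smaller steps. Yars had 15.6, 15.3 and 15.6 FPKM with siSox9 and 14.1, 14.7 and 14.1 FPKM with siNC. All siSox9 values were above the siNC values, and the log2 fold change was 0.11 (SE 0.031, adjusted p = 0.0342, limma). Tars had 84.9, 84.0 and 87.5 FPKM with siSox9 and 79.3, 80.2 and 80.4 FPKM with siNC. The siNC libraries of Tars lay close together and below all siSox9 libraries (log2 fold change 0.09, SE 0.028, adjusted p = 0.0414, limma). The Yars call was kept in 7 of 14 alternative settings and the Tars call in 3 of 13.

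Aars and Tarsl2 were the cytosolic genes that fell. Aars, the alanyl enzyme, which also proofreads the serine it attaches by mistake, had 32.5, 32.1 and 32.3 FPKM with siSox9 and 35.1, 34.6 and 35.2 FPKM with siNC. Both groups were tight and did not overlap, so that a decrease to 92.4% of the siNC level was called (log2 fold change -0.11, SE 0.026, adjusted p = 0.0190, limma). Aars shares 1326 exon bases with Exosc6 on the same strand, and reads in that stretch cannot be assigned to either gene from the table. Tarsl2, a second cytosolic threonyl-tRNA synthetase, had 1.39, 1.59 and 1.51 FPKM with siSox9 and 1.92, 2.06 and 1.74 FPKM with siNC. Its siSox9 libraries were the 3 lowest, at 78.7% of the siNC mean (log2 fold change -0.22, SE 0.068, adjusted p = 0.0483, limma), and the call was kept in 2 of 13 settings. The gene overlaps Tm2d3 by 120 exon bases on the same strand, and Tm2d3 moved the other way (log2 fold change 0.21, adjusted p = 0.0251, limma).

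By structural class, the cytosolic class I genes were called in a single direction and the class II genes in both. Of the 9 class I genes, 5 rose (Rars, Cars, Lars, Iars and Yars) and 0 fell, beside the 12.8% and 17.6% over all genes. At an unadjusted p under 0.05 the limma counts were 6 and 0, where 5051 of all 12009 genes passed in either direction. Limma voom on recovered reads called 4 and 0 of 8, beside 1524 higher and 2183 lower of 10479 genes. The 4 class I genes that limma did not call were Mars (log2 fold change 0.09, adjusted p = 0.148), Wars (0.09, adjusted p = 0.118), Vars (0.05) and Qars (0.005). The fold change was thus above 0 in all 9. Mars and Wars, for methionine and tryptophan, had siSox9 values above every siNC value without passing the limma test. Of the 9 class II genes, Tars rose and Aars and Tarsl2 fell, and the median log2 fold change was 0.010, against 0.11 in class I. Of the mitochondrial genes, Ears2 rose and Cars2 fell among 9 of class I (median -0.07), and 3 rose and 1 fell among 7 of class II (median 0.004). Dars, Farsa, Farsb, Hars, Nars and Sars, and Eprs, which joins a class I and a class II domain in one protein, had overlapping groups and log2 fold changes from -0.07 to 0.03. A test of the difference between the cytosolic classes was not made, since genes of a class are not replicates of a condition. In the complex, 3 of the 8 synthetases rose (Rars, Lars and Iars) and 0 fell (by limma voom 2 and 0 of 7, at an unadjusted p under 0.05 by limma 3 and 0).

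Gars and Kars, which supply glycyl and lysyl enzymes to cytosol and mitochondria alike, were not called. Gars had 91.3, 91.7 and 94.8 FPKM with siSox9 and 88.5, 95.95 and 97.3 FPKM with siNC. Kars had 37.7, 37.4 and 39.1 FPKM with siSox9 and 36.3, 38.7 and 39.3 FPKM with siNC. In both, siNC replicate 1 was the lowest library and siNC replicate 3 the highest, so that the siNC range enclosed all siSox9 values. The log2 fold changes were -0.02 (adjusted p = 0.762, limma) and -0.001 (adjusted p = 0.987, limma).

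The mitochondrial genes were called in both directions, with 8 of 16 on each side of 0 and a median log2 fold change of -0.005. Fars2, the single-chain mitochondrial phenylalanyl enzyme, had 2.06, 2.12 and 2.40 FPKM with siSox9 and 1.67, 1.56 and 1.79 FPKM with siNC. The groups did not overlap, and its log2 fold change of 0.26 (SE 0.066, adjusted p = 0.0260, limma) stood beside 0.03 and 0.01 for Farsa and Farsb. Fars2 shares 501 exon bases with Nrn1 and 115 with Lyrm4, both on the opposite strand. Tars2, the mitochondrial threonyl enzyme, had 7.74, 6.86 and 7.57 FPKM with siSox9 and 6.53, 6.03 and 6.08 FPKM with siNC. Its siSox9 replicate 2 came nearest to the siNC libraries, and the log2 fold change was 0.22 (SE 0.053, adjusted p = 0.0205, limma).

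Hars2 and Ears2 also rose. Hars2, the mitochondrial histidyl enzyme, had 8.49, 8.43 and 8.26 FPKM with siSox9 and 7.52, 7.33 and 6.73 FPKM with siNC. The siSox9 libraries lay close together above the siNC libraries, with a log2 fold change of 0.20 (SE 0.045, adjusted p = 0.0155, limma). Hars2 lies head to head with its cytosolic partner Hars on opposite strands, with 195 shared exon bases, and Hars had 37.6 ± 1.64 FPKM with siSox9 and 37.3 ± 0.608 FPKM with siNC (log2 fold change 0.010, adjusted p = 0.875, limma). Ears2, which attaches glutamate to the mitochondrial transfer RNAs of glutamate and of glutamine, had 2.995, 3.10 and 2.92 FPKM with siSox9 and 2.63, 2.54 and 2.41 FPKM with siNC. All siSox9 values were higher, with a log2 fold change of 0.18 (SE 0.050, adjusted p = 0.0291, limma), and the call was kept in 5 of 13 settings.

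Aars2 and Cars2 fell. Aars2, the mitochondrial alanyl enzyme, mutations of which are known to cause cardiomyopathy and leukodystrophy, had 7.62, 6.72 and 6.89 FPKM with siSox9 and 8.55, 8.39 and 8.33 FPKM with siNC. The siNC libraries were tight, siSox9 replicate 1 was nearest to them, and the log2 fold change was -0.22 (SE 0.048, adjusted p = 0.0128, limma). Cars2, the mitochondrial cysteinyl enzyme, had 2.22, 2.37 and 2.09 FPKM with siSox9 and 2.59, 2.98 and 2.76 FPKM with siNC. Its groups did not overlap, with a log2 fold change of -0.23 (SE 0.061, adjusted p = 0.0298, limma), a call kept in 6 of 13 settings. Cars2 shares 422 exon bases with Naxd on the opposite strand, Naxd moved the other way (log2 fold change 0.27, adjusted p = 0.00217, limma), and whether the counting used strand is not given in the sources used here.

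Among the other mitochondrial genes, Iars2, Mars2 and Wars2 had all siSox9 values below all siNC values without passing the test, and of these Mars2 passed with limma voom on recovered reads (log2 fold change -0.22, adjusted p = 0.0287). Their log2 fold changes by limma were -0.07, -0.14 and -0.08, with adjusted p from 0.139 for Mars2 to 0.238 for Wars2 (limma). Iars2 shares 2034 exon bases with Rab3gap2 on the opposite strand, so its value is less certain than the others. Pars2, Rars2, Sars2, Vars2 and Yars2 had overlapping groups and log2 fold changes from -0.01 to 0.09.

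Lars2, the mitochondrial leucyl enzyme, varied more between libraries of the same group than between groups. It had 7.47, 9.40 and 15.7 FPKM with siSox9 and 9.45, 20.04 and 34.5 FPKM with siNC. The groups overlapped, and siNC replicates 2 and 3 stood above the rest, so the log2 fold change of -0.80 carried a standard error of 0.44 (adjusted p = 0.212, limma). It was -1.26 without siNC replicate 1, where it passed the test (adjusted p = 0.0276, limma), and -0.38 without siNC replicate 3. Its cytosolic partner Lars varied by less than 3 FPKM within either group. Chosen after their values were seen, as genes that move with the Lars2 libraries, 3 genes of non-coding or ribosomal RNA are set beside it. Gm23935 had 2761, 2696 and 3734 FPKM with siSox9 and 748, 11180 and 19473 FPKM with siNC, and Gm26917 had 18.3, 19.5 and 20.2 FPKM with siSox9 and 21.6, 29.9 and 38.2 FPKM with siNC. CT010467.1 had 87.6, 121 and 94.6 FPKM with siSox9 and 116, 129 and 148 FPKM with siNC. In the siNC libraries all 3 were lowest in replicate 1 and highest in replicate 3, as Lars2 was, which was part of the choice. With siSox9, CT010467.1 was highest and Gm23935 lowest in replicate 2, unlike Lars2. The part of these 3 genes in the Lars2 values was not tested. Of the annotated 50-base stretches of Lars2, 0.2% occur in another annotated gene.

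**Figure D3:**
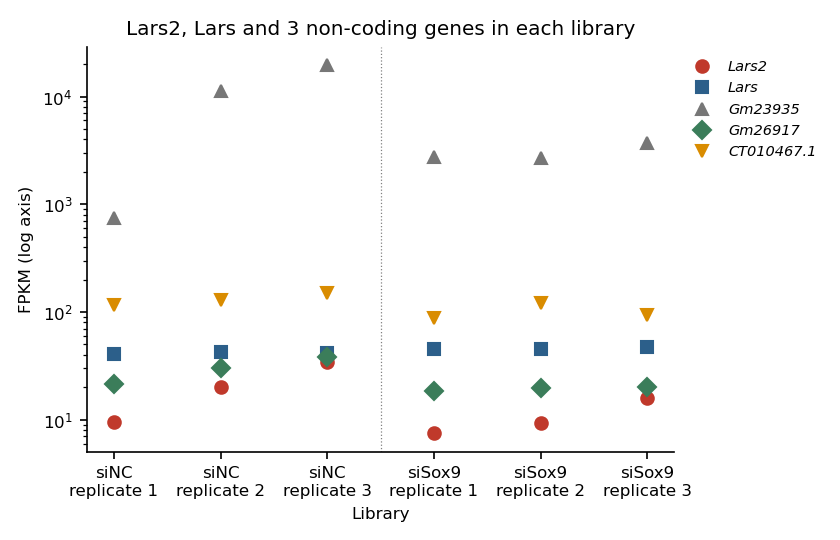
FPKM of Lars2, its cytosolic partner Lars and the non-coding genes Gm23935, Gm26917 and CT010467.1 in each of the 6 libraries, on a log axis. Lars2 runs from 9.45 to 34.5 FPKM over the siNC libraries while Lars stays between 40.3 and 42.5 FPKM.

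Amino acid by amino acid, cytosolic and mitochondrial partners were called the same way in 2 of the 18 pairs. The alanyl genes Aars and Aars2 both fell, and the threonyl genes Tars and Tars2 both rose. Tarsl2, the other cytosolic threonyl gene, was not paired and was called lower, opposite to Tars2 (log2 fold changes -0.22 and 0.22). The cysteinyl genes were called in opposite directions, Cars higher and Cars2 lower. The ratio of the 2 FPKM values within a library does not depend on how libraries are scaled, and for cysteine it was 9.18 ± 0.754 (SD, n = 3) with siSox9 and 6.57 ± 0.556 with siNC. For alanine it was 4.58 ± 0.273 and 4.15 ± 0.0643. Neither pair of ratios overlapped between groups. They were among 10 of the 18 pairs whose log2 ratio of FPKM + 1 gave the smallest exact permutation p of 0.1, or 0.18 adjusted over the 18 pairs. That p is reached whenever the groups do not overlap, which held for the levels of 46.3% of all genes tested. The share over ratios of other gene pairs was not computed. For threonine the ratio was 11.6 ± 0.639 and 12.9 ± 0.647, with overlapping groups (exact permutation p = 0.2, adjusted 0.257).

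**Figure D4:**
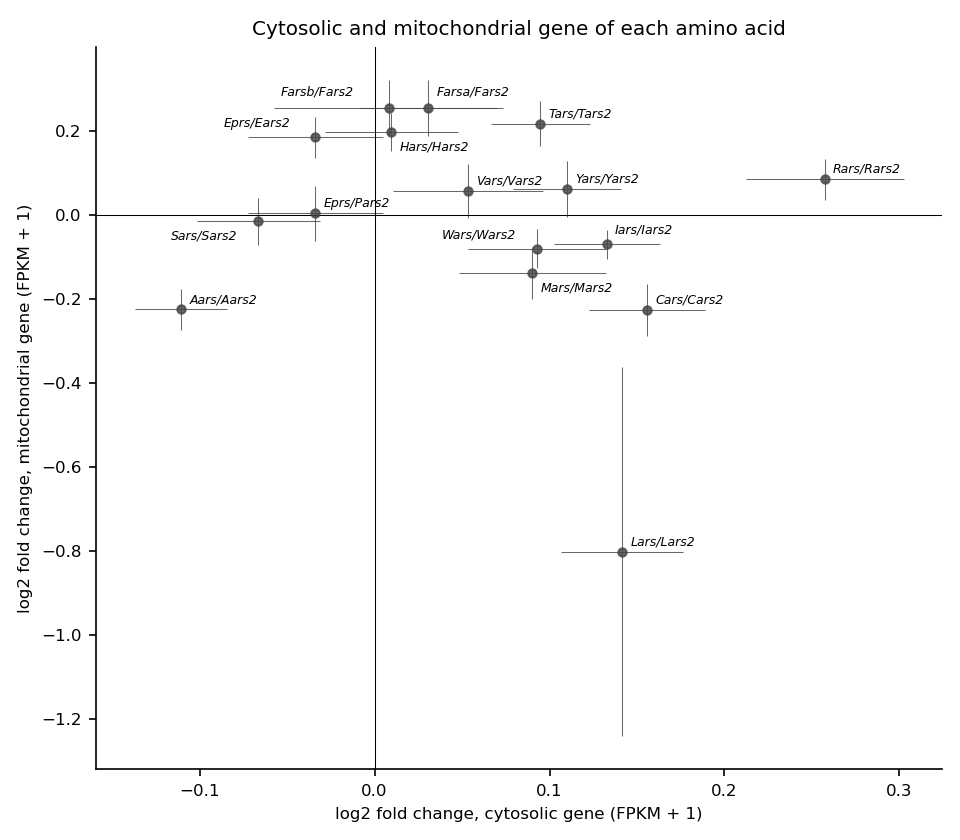
Log2 fold change of the cytosolic gene (x axis) against that of the mitochondrial gene (y axis) for amino acids with both genes tested, on the scale of FPKM + 1, with limma standard errors as bars. Tarsl2 is not plotted. Aars/Aars2 lies at -0.11 and -0.22, Tars/Tars2 at 0.09 and 0.22, and Cars/Cars2 at 0.16 and -0.23.

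Summed over genes, the cytosolic set had 831, 835 and 870 FPKM with siSox9 and 797, 819 and 809 FPKM with siNC. The siSox9 sums were above the siNC sums by a few percent. The mitochondrial set without Lars2, 16 genes, had 80.3, 78.3 and 79.4 FPKM with siSox9 and 78.2, 78.9 and 76.8 FPKM with siNC, which overlapped. The ratio of the first sum to the second was 10.7 ± 0.304 (SD, n = 3) with siSox9 and 10.4 ± 0.179 with siNC, again with overlap, and no p was computed for these sums. With Lars2 the mitochondrial sum had a mean of 90.2 ± 4.26 FPKM with siSox9 and 99.3 ± 11.8 FPKM with siNC.

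Among genes that work with the synthetases, Dtd1, Dtd2, Gatb and Gatc fell. The scaffold proteins of the multisynthetase complex, Aimp1, Aimp2 and Eef1e1, had log2 fold changes of -0.01, 0.03 and 0.15, with 0 of 3 called by limma, 1 at an unadjusted p under 0.05 and 1 by limma voom, in each case Eef1e1. Of 10 genes tested for indirect charging, editing and selenocysteine, 4 fell and 0 rose (4 and 0 at an unadjusted p under 0.05, 3 and 0 by limma voom). That is 40% lower and 0% higher, beside 17.6% and 12.8% over all genes. At an unadjusted p under 0.05 by limma, 5051 of all 12009 genes passed in either direction. Limma voom called 2183 lower and 1524 higher of 10479 genes. Dtd1 and Dtd2, deacylases that remove wrongly attached amino acids from transfer RNAs, had log2 fold changes of -0.43 (SE 0.050) and -0.38 (SE 0.039), from 8.84 ± 0.390 to 6.31 ± 0.360 FPKM and from 5.33 ± 0.0441 to 3.85 ± 0.111 FPKM (SD, n = 3). Gatb and Gatc, subunits of the amidotransferase that turns the glutamate placed by Ears2 into glutamine, fell by 0.32 and 0.11 on the log2 scale (adjusted p = 0.0155 and 0.0464, limma). Gatc was not called by limma voom (adjusted p = 0.163), and with no filter neither was called by limma (adjusted p = 0.0582 and 0.0671). Qrsl1, the remaining subunit, was at 0.06 (adjusted p = 0.501). Mtfmt, which formylates the initiator methionine in mitochondria, had 0.08 (adjusted p = 0.158).

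Of the cytosolic elongation factors, 0 of 8 were called by limma, 0 at an unadjusted p under 0.05 and 0 of 7 by limma voom, and Eef1a1, which carries charged transfer RNA to the ribosome, had 3623 ± 180.4 FPKM with siSox9 and 3638 ± 160.1 FPKM with siNC. Among 11 mitochondrial translation factors, Gfm2 and Tufm rose (log2 fold change 0.18 and 0.11), the latter the mitochondrial counterpart of Eef1a1. Tsfm, the exchange factor of Tufm, had 0.13 (adjusted p = 0.0692, limma). That is 18.2% higher and 0% lower, beside 12.8% and 17.6% over all genes, and the median of the list was -0.051. At an unadjusted p under 0.05 by limma 4 were higher and 0 lower, and limma voom called 2 and 0 of 10. Over all genes, 5051 of 12009 had an unadjusted p under 0.05 by limma, and limma voom called 1524 higher and 2183 lower of 10479. The mitochondrial ribosomal proteins had 11 genes higher (14.3%) and 4 lower (5.19%) of 77, beside 12.8% and 17.6% over all genes, with Mrpl36 at 0.25 and Mrpl57 at 0.23 the highest and Mrpl13 at -0.66 and Mrpl11 at -0.31 the lowest called. Of 25 genes of RNA polymerase III transcription, which makes transfer RNAs, Polr3c rose (0.09) and Gtf3c5, Polr3k, Polr3f and Gtf3c6 fell, by 0.26, 0.23, 0.19 and 0.12 on the log2 scale. That is 4% higher and 16% lower, beside 12.8% and 17.6% over all genes. Limma voom called 3 higher and 4 lower of 22.

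Among regulators of the integrated stress response, Nupr1, Eif2ak3, Ppp1r15a and Ddit3 rose and Eif2b5 and Eif2b4 fell, of 22 tested, which is 18.2% higher and 9.09% lower beside 12.8% and 17.6% over all genes. Limma voom called 6 higher and 0 lower of 20 (3 lower at an unadjusted p under 0.05 by limma), without Ddit3 (adjusted p = 0.143) and Eif2b4 (adjusted p = 0.0552), and Eif2b5 was not among the genes with whole reads. Over all genes limma voom called 1524 higher and 2183 lower of 10479, and 5051 of 12009 had an unadjusted p under 0.05 by limma. Eif2ak3 encodes PERK, the kinase that senses stress of the endoplasmic reticulum, and rose from 21.2 ± 1.02 to 27.2 ± 1.09 FPKM (SD, n = 3; log2 fold change 0.35, SE 0.046). Nupr1, a stress-induced chromatin protein, had a log2 fold change of 0.57 and Ppp1r15a, which brings a phosphatase to eIF2, of 0.27. Ddit3 had 0.12 (adjusted p = 0.04998, limma) and shares 68 exon bases with Mars on the opposite strand. Eif2ak4, the GCN2 kinase that senses uncharged transfer RNA, had -0.10 (adjusted p = 0.0643), and Eif2b5 and Eif2b4, subunits of the eIF2 exchange factor, fell by 0.26 and 0.13 on the log2 scale. Atf4 messenger RNA was level between the groups, with 159 ± 1.26 FPKM with siSox9 and 157 ± 2.87 FPKM with siNC (log2 fold change 0.01, adjusted p = 0.731, limma). Atf4 is known to be controlled mainly in translation, and its protein was not measured here.

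ATF4 target genes outside the synthetases were called in both directions, 6 higher (19.4%) and 5 lower (16.1%) of 31 beside 12.8% and 17.6% over all genes, and their median was 0.006 on the log2 scale. Phgdh, the entry enzyme of serine synthesis, Slc7a11, the cystine transporter, Sesn2 and Cth rose by 0.28, 0.27, 0.25 and 0.23 on the log2 scale. Shmt2, the mitochondrial serine hydroxymethyltransferase, had 23.6 ± 0.452 FPKM with siSox9 and 40.1 ± 2.04 FPKM with siNC (SD, n = 3; log2 fold change -0.74, SE 0.042). Psat1, Slc38a2 and Aldh1l2 fell by 0.41, 0.21 and 0.20. Asns, Chac1 and Trib3, commonly read as markers of ATF4 activity, had log2 fold changes of -0.002, -0.01 and 0.01 with overlapping groups.

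**Figure D5:**
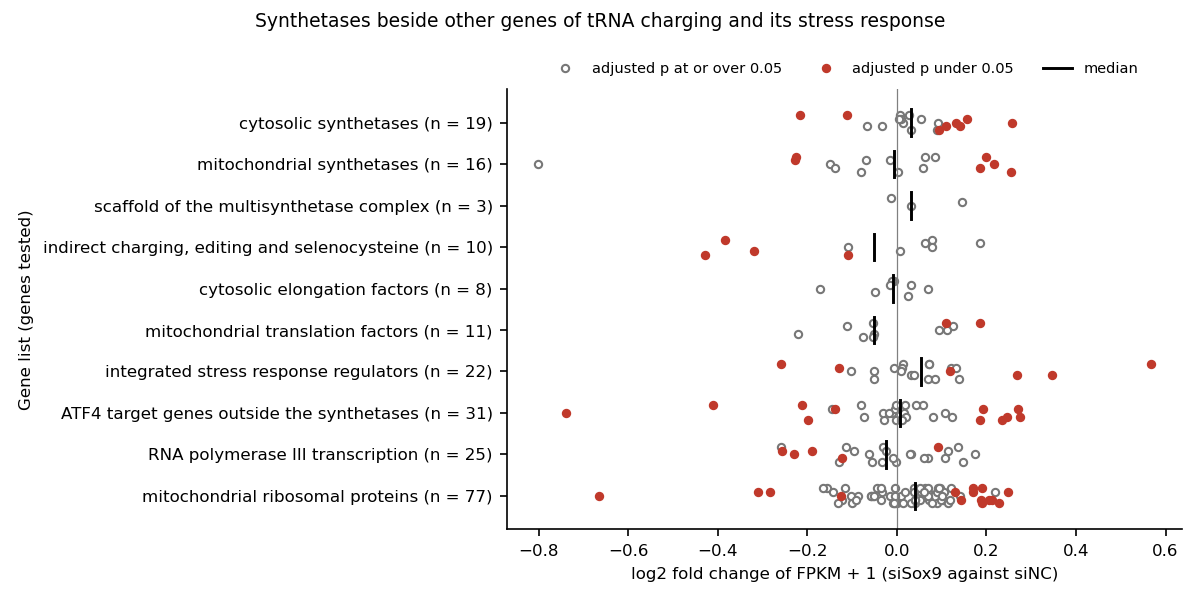
Log2 fold change of FPKM + 1 (siSox9 against siNC) of each gene tested in the cytosolic and mitochondrial synthetases and in 8 lists of related genes; filled points passed an adjusted p of 0.05 and the black bar is the median. The medians lie between -0.051 and 0.054, and genes called in both directions are seen in the synthetases, the stress response lists, RNA polymerase III and the mitochondrial ribosomal proteins.

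The promoters were read because ATF4 is known to bind the C/EBP-ATF response element, whose common part TGATGNAA (on the other strand TTNCATCA) was searched on both strands in the window from 250 bases before to 50 bases after each RefSeq start. RefSeq promoters of GRCm38.p6 were matched for 28 of the 38 genes. Pars2, Hars2, Rars, Vars, Cars, Hars, Lars, Wars and Nars were among those without a match. Counted by gene, the motif occurred in 4 of 12 cytosolic genes (33.3%), in Gars of the 2 shared genes and in 0 of 14 mitochondrial genes. Beside this stand 1219 of 27025 RefSeq genes with a promoter (4.51%), or 1304 of all 32851 RefSeq promoters (3.97%). Windows of 30 bases around a match in each of these genes, from RefSeq, are shown so that the matched letters and their surroundings can be read, 5′ to 3′ on the strand of the gene, with the motif in capitals:

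Aars, chr8:111033840-111033869, + strand, motif from position 10: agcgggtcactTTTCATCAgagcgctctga

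Iars, chr13:49682126-49682155, + strand, motif from position 8: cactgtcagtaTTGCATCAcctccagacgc

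Tars, chr15:11399655-11399684, - strand, motif from position -15: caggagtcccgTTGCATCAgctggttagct

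Yars, chr4:129189895-129189924, + strand, motif from position 4: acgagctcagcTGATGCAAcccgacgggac

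Gars, chr6:55037960-55037989, + strand, motif from position -30: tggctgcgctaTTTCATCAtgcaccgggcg

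Of these genes, Iars, Tars and Yars rose, Aars fell and Gars was not called, so the motif went with no single direction. A match is a description of letters and does not show that a factor binds, and the absence of these letters from a window says nothing of the factor. Rars and Cars, which had the 2 largest cytosolic increases, are among the genes without a matched promoter.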

How the data were processed

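RNA-Seq was performed by the authors on an Illumina NovaSeq instrument. The deposited values are FPKM per gene and library, 3 libraries a group. Per the labels, the processing notes name Bowtie2 2.2.3, HISAT2 2.1.0, TopHat2 and the build mm9, with no roles; counter, annotation and strand setting are not given in the sources used here. Gene positions equal GENCODE M21 (GRCm38) for 93.3% of shared genes, so coordinates are given as GRCm38. Columns not named for siNC were read as siSox9, the only other siRNA in the labels. In 25 rows a date stands for the gene name.

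Genes averaging 1 FPKM or more were tested on log2(FPKM + 1), a scale that understates changes of low genes, with limma 3.58.1 in R 4.3.3 (trend) and Benjamini-Hochberg adjustment; a gene was called at an adjusted p under 0.05. No replicate block was used. Whole reads, within 0.02, were recovered with M21 exon lengths for 27949 genes, including 33 synthetases (139 to 9504 reads); FPKM of 1 read per kb was 0.0389 to 0.0419. Compartment, class and complex membership, the pathway and marker lists, and the promoter motif were written from general knowledge, and members and lists were chosen with earlier results of these data known. All synthetases are named; from each list up to 4 called genes a direction, by size, and a fixed set. Overlap of exons and shared 50-base stretches were computed from M21. Of the called genes, Cars, Ears2 and Yars also share 211, 89 and 30 exon bases with Gm15580, Ubfd1 and C77080 on the opposite strand. Of the 50-base stretches of Iars, 7.1% occur in another annotated gene, Gm4849. The test was run on simulated data. Alternatives were TPM, quantile normalization, median centring, pseudocount 0.1, a mean of 5 FPKM or no filter, the block, each library left out, and Gars and Kars counted in. Limma voom on recovered reads was added after seeing the data. Tables and figures were made with pandas 2.3.3, scipy 1.17.1, numpy 2.4.6 and matplotlib 3.10.9 in Python 3.11.15. Values of 1 gene and 1 sequence window are not reported here.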

Additional observations from a re-analysis of the deposited data

How the results depend on the processing

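Rars and Cars were called higher in all 14 alternatives run for them, and none of the 14 called synthetases changed direction in any. Iars was kept in 13 of 14, Aars2 in 12 of 13, Hars2 in 12 of 14, Lars in 10 of 13, Aars in 10 of 14, Tars2 in 9 of 14, Fars2 in 8 of 13 and Cars2 in 6 of 13. The libraries whose removal ended a call were siSox9 replicate 1 for Iars; siSox9 1 and 2 for Hars2; siSox9 1 and 3 and siNC 3 for Lars; siSox9 1 and 2 and siNC 3 for Aars; siSox9 1 and 3 and siNC 2 and 3 for Tars2 and Cars2; siSox9 2 and 3 and siNC 1 and 2 for Fars2; all but siNC 1 for Ears2; all but siNC 2 for Yars; and each of the 6 for Tars and Tarsl2. The adjusted p of the called genes then and in the other alternatives reached at most 0.143, save 0.266 for Aars. Called cytosolic genes, 8 in the report, numbered 4 with TPM, 5 with the replicate block and 2 to 6 with a library left out. Called mitochondrial genes, 6 in the report, numbered 2 with no filter, 3 with a minimum of 5 FPKM, 3 with TPM and 2 to 6 with a library left out. TPM called 7 synthetases higher and 0 lower (10 and 3 at an unadjusted p under 0.05 by limma; limma voom called 8 higher and 4 lower of 32), and the FPKM sum that it divides by holds Gm23935 at 0.266% to 6.35% per library. Over all genes, 3650 were called in the report and 2424 to 3654 with a library left out, the fewest without siSox9 replicate 2. Of the called genes 42.0% were higher in the report and 52.6% after median centring (1959 higher, 1765 lower). List genes called, 43 in the report, numbered 23 with no filter and 21 to 39 with a library left out.

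Log2 fold changes near 0 changed sign. With quantile normalization they were -0.015 for Farsb, -0.0043 for Hars, 0.039 for Sars2, -0.030 for Atf4 and 0.38 for Eef1a1. With TPM they were 0.0098 for Gars, 0.028 for Kars, 0.0080 for Sars2, 0.014 for Aimp1, 0.027 for Asns, 0.016 for Chac1 and 0.023 for Eef1a1. With median centring they were 0.0072, 0.026, 0.012, 0.013, 0.025, 0.015 and 0.0205 for the same genes. With a library left out they ranged from -0.026 to 0.067 for Dars, -0.045 to 0.061 for Farsb, -0.017 to 0.044 for Hars, -0.0011 to 0.053 for Nars, -0.0072 to 0.027 for Qars, -0.061 to 0.0065 for Gars, -0.035 to 0.022 for Kars, -0.026 to 0.055 for Pars2, -0.042 to 0.030 for Sars2, -0.067 to 0.023 for Aimp1, -0.015 to 0.056 for Aimp2, -0.036 to 0.025 for Asns, -0.065 to 0.026 for Chac1, -0.045 to 0.028 for Eef1a1 and -0.051 to 0.068 for Trib3. The cause was not tested. Deviations of same-numbered libraries from their group means correlated at 0.065, -0.050 and 0.008, which cannot show whether the replicate numbers pair the libraries. The block called 3262 genes, with 7 synthetases higher and 4 lower by limma. Lars2, which rose from replicate 1 to replicate 3 in both groups, was among the latter (adjusted p = 0.0201, limma). Depth limits low genes such as Nars2, whose libraries hold 139 reads or more.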
